A study of Mus musculus with 5 samples.

Results

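Spermatogonia, the dividing male germ cells of the young testis, were compared with primordial germ cells, the fetal cells from which they descend (PGCs below), across every small RNA entry that was tabulated for both. The comparison used 1 library of each cell type, out of 5 mouse libraries in all, and took each entry with at least 100 reads over the pair, an entry absent from a table being counted as 0 reads. That left 530 of 1316 miRNA entries, 129 of 186 named snoRNA entries, 6362 of 196406 piRNA entries and 6188 of 212905 endo-siRNA entries. The primordial germ cells came from male gonads of CD-1 fetuses at 13.5 days post coitum and were captured with magnetic beads against CD15, the SSEA-1 surface antigen, with alkaline phosphatase staining as a check. The spermatogonia came from CD-1 testes at 8.5 days after birth and were what remained in suspension after a short culture in which somatic cells settled and attached; Stra8 served as the germ cell marker and Fn1 as the somatic one. Both preparations were untreated, and the labels name no genotype beyond the strain and do not say how many animals were pooled. The other 3 libraries, of CD-1 spermatozoa from the cauda epididymis, C57BL/6 metaphase II oocytes and zygotes from C57BL/6 mothers and DBA/6J fathers, are used only to place values.

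MicroRNAs are cut from hairpin precursors and, held by Argonaute proteins, recognise messenger RNAs mainly through bases 2 to 8, the seed. PGCs share with pluripotent embryonic cells the expression of the miR-290 to miR-295 cluster, and of LIN28, a protein that blocks the maturation of let-7. piRNAs guide PIWI proteins against transposons and, in fetal male germ cells, direct DNA methylation to them. Box C/D and box H/ACA snoRNAs guide methylation and pseudouridylation of ribosomal RNA, and small Cajal body RNAs (scaRNAs) do the same for spliceosomal RNAs. Endo-siRNAs are made by Dicer from double-stranded transcripts.

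The miRNAs on which the comparison turns fall into a few seed groups, so their mature sequences are shown first, from RefSeq for GRCm38.p6, with the seed in capitals. The first set shares the seed of the embryonic miR-290 to miR-295 and miR-302 clusters.
miR-291a-3p: aAAGUGCUuccacuuugugugc
miR-294-3p: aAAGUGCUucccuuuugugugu
miR-295-3p: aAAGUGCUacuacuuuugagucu
miR-302b-3p: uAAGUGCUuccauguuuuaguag

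A second set, from the miR-17/92 cluster and its paralogs, carries nearly the same seed moved by 1 base, and is shown because its members differ widely in ratio in spite of it.
miR-17-5p: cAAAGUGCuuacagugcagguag
miR-20a-5p: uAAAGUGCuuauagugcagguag
miR-20b-5p: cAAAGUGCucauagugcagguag
miR-106a-5p: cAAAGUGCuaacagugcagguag
miR-93-5p: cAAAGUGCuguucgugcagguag
miR-18a-5p: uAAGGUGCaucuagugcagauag
miR-18b-5p: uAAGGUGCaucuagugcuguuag

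Positions are counted from 1 at the 5′ end, and the base of the first-named miRNA comes first. On this scale miR-20b-5p differs from miR-20a-5p by U1C and U10C, and miR-18b-5p from miR-18a-5p by A18U and A20U, so each pair can be told apart by reads that reach those bases. The third set is the let-7 family, whose members share 1 seed.
let-7a-5p: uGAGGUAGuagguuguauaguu
let-7b-5p: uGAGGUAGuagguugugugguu
let-7c-5p: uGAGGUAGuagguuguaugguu
let-7d-5p: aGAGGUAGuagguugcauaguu
let-7f-5p: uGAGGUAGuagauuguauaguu
let-7g-5p: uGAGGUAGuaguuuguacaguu

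Against let-7a-5p, let-7c-5p carries A19G, let-7f-5p carries G12A, let-7b-5p carries A17G and A19G, and let-7d-5p carries U1A and U16C. How the authors assigned a read that matches several such entries is not given in the sources used here.

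Read numbers are estimated counts, and levels are given as RPM, the reads of an entry scaled to 1000000 reads of its class in its library, and pairs of values are given with PGCs first. Over its 4 tables the PGC library held 26563078 reads and the spermatogonial one 26344449. By class there were 12004614 and 10657432 miRNA reads, 7521583 and 5108830 snoRNA reads, 5820204 and 7150813 piRNA reads, and 1216678 and 3427374 endo-siRNA reads. With 1 library a side there is no spread between replicates, so no difference was tested. Brackets hold exact 95% intervals for counting error only, with reads treated as independent counts. PCR copies are not independent molecules, so the intervals can be too narrow even for that error. Log2 ratios are of spermatogonia over PGCs with 0.5 reads added to each count, and entries at least 4-fold apart (a log2 ratio of 2 or more in either direction) are counted as higher or lower. All ratios of a class depend on the scaling. Over 5 other scalings the log2 ratios of a class moved together by -0.71 to -0.16 for miRNAs, -1.10 to -0.31 for snoRNAs, -0.48 to 0.31 for piRNAs and -0.09 to 1.51 for endo-siRNAs. A fold near 1 in a class is therefore read against the median of that class. In bulk RNA, fewer cells of a type and less RNA per cell cannot be told apart.

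Of the 530 miRNAs compared, 136 (25.7%) passed the 4-fold line upward in spermatogonia and 67 (12.6%) downward, around a median log2 ratio of 0.65. That split was 103 to 90 with TMM factors, 108 to 87 with DESeq2 size factors and 98 to 98 with the deposited factor. The read numbers of spermatogonial miRNAs are all whole, whereas 14.8% of those in PGCs are not, and why they differ was not tested; over the 428 miRNAs with whole PGC reads, 109 were higher and 48 lower. Of the 15 most abundant miRNAs of each library, 8 were the same, and the 15 held 69.3% of miRNA reads in PGCs and 61.8% in spermatogonia. The miRNAs next to the 4-fold line were miR-139-3p at 2.01 and miR-92b-5p at 1.99 on the upper side, and miR-6992-5p at -2.10 and miR-450b-5p at -1.93 on the lower side.

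**Figure D1:**
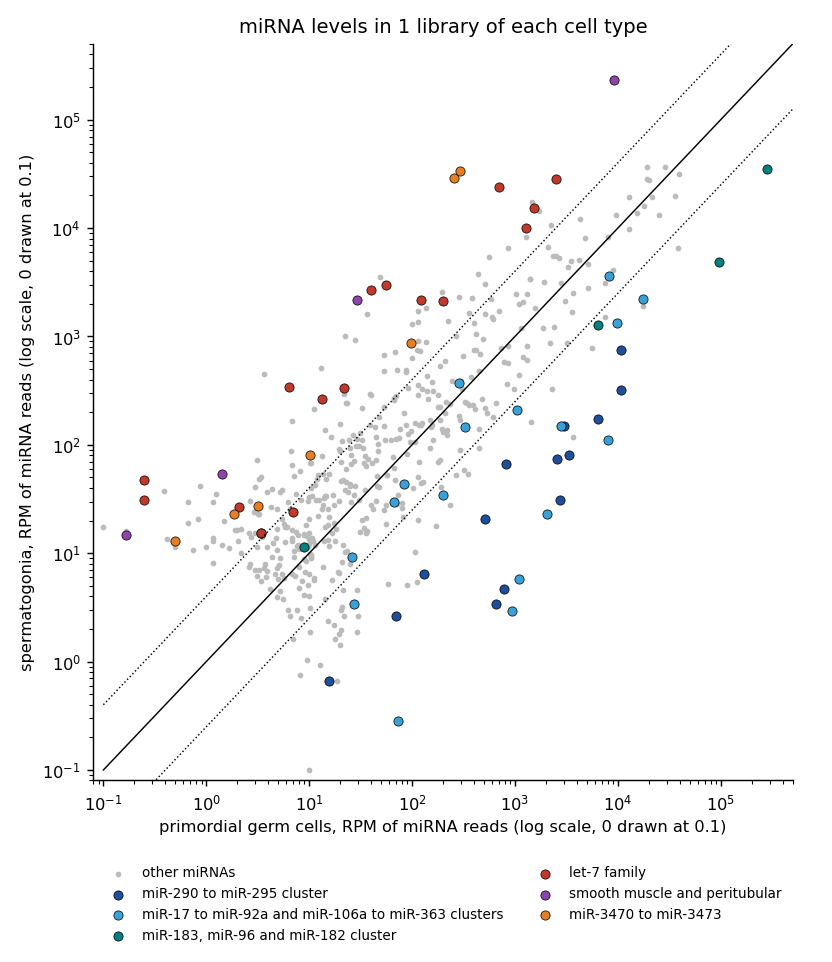
Levels of the 530 compared miRNAs in PGCs (x axis) and spermatogonia (y axis), in RPM of miRNA reads on log scales with 0 drawn at 0.1. The solid line marks equal levels and the dotted lines 4-fold differences; the 14 compared members of the miR-290 to miR-295 cluster all lie below the lower dotted line, and 16 of 17 let-7 family members above the upper one.

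The miR-290 to miR-295 cluster, the main miRNA cluster of mouse embryonic stem cells, was lower in spermatogonia throughout. All 14 of its entries were compared and all 14 were at least 4-fold lower, beside 12.6% of all miRNAs, with log2 ratios from -7.57 to -3.63 and a median of -4.87 beside 0.65 for all miRNAs. The cluster summed to 42592 RPM in PGCs and 1692 in spermatogonia, a 25.2-fold difference [24.8 to 25.6]. miR-291a-3p stood at 10762 RPM in PGCs and 753 in spermatogonia, 14.3-fold lower [14.0 to 14.6]. miR-295-3p, from chr7:3220773-3220841 on the plus strand of GRCm38, where GENCODE has no other gene on that strand, stood at 10682 and 324 RPM. It was 33.0-fold lower [31.9 to 34.1]. The entries thus did not keep their proportions: miR-291a-3p and miR-295-3p had near-equal levels in PGCs, and miR-291a-3p alone made up 44.5% of the cluster in spermatogonia. miR-293-5p, with the lowest ratio of the 14, had 7833 reads and 36 reads, a 193-fold difference.

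The miR-302/367 cluster, a second pluripotency cluster, was measured at a trace level in PGCs. Its 6 entries summed to 27.9 RPM there and had 0 reads in spermatogonia, so only miR-302b-3p, from chr3:127545228-127545301 on the plus strand, had enough reads to be compared. It had 120.4 reads and 0 reads, at least 35.6-fold lower when the 0 is replaced by 3 counts. None of the 6 had a read in spermatozoa either.

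Grouped by seed, the 4 compared miRNAs with the seed AAGUGCU summed to 24835 RPM in PGCs and 1158 in spermatogonia, 21.5-fold lower [21.1 to 21.8]. The 6 miRNAs with the seed AAAGUGC summed to 81509 and 11046 RPM, 7.38-fold lower [7.33 to 7.42]. Mature sequences were matched for 432 of the 530 compared miRNAs, which carried 91.8% of miRNA reads in PGCs and 65.5% in spermatogonia. They fell into 343 seeds, of which 56 were shared by at least 2 miRNAs, and of those 56 summed levels 13 were higher and 7 lower in spermatogonia by 4-fold or more, near the 25.7% and 12.6% of single miRNAs.

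The miR-17/92 cluster and its X-linked paralog, which runs from miR-106a to miR-363, encode miRNAs known to promote proliferation. Their widest differences were at the X-linked locus. Over both clusters 11 of 17 compared entries were at least 4-fold lower and none at least 4-fold higher in spermatogonia, beside 12.6% and 25.7% of all miRNAs, with a median of -2.87 and summed levels of 52864 and 8284 RPM. The 5 entries with the lowest ratios all came from the X-linked cluster, whose hairpins lie between chrX:52741693 (Mir363) and chrX:52742567 (Mir106a) on the minus strand. Of them, miR-18b-5p had 11203 reads in PGCs and 31 in spermatogonia, a 321-fold difference [226 to 472]. miR-363-3p had 13179 and 62 reads, 189-fold lower [147 to 246], and miR-106a-5p 24793.3 and 247 reads, 89.1-fold lower [78.6 to 101]. The X-linked miR-20b-3p differed less, with 330 and 36 reads. Elsewhere miR-18b-5p was also low, with 1 read in spermatozoa and 4 each in oocyte and zygote.

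Their autosomal counterparts in the exons of the noncoding host gene Mir17hg on chromosome 14, with Mir17 at chr14:115043671-115043754 on the plus strand, differed less. miR-17-5p stood at 9808 RPM in PGCs and 1341 in spermatogonia, 7.31-fold lower [7.19 to 7.44]. miR-20a-5p stood at 17758 and 2197 RPM, 8.08-fold lower, whereas its X-linked counterpart miR-20b-5p stood at 7956 and 111 RPM, 71.4-fold lower. miR-18a-5p was 18.9-fold lower, against 321-fold for miR-18b-5p. miR-92a-3p, which has a precursor in each cluster, differed less still, at 8304 and 3605 RPM, 2.30-fold lower [2.28 to 2.33].

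Over the whole X chromosome the shares were near those of all miRNAs. Of 71 compared miRNAs with a position on the X chromosome alone, 23.9% were higher and 12.7% lower by 4-fold or more. Among 358 with autosomal positions alone, the shares were 27.1% and 13.4%.

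The miR-106b/25 cluster, within the gene Mcm7 at chr5:138165321-138165818, minus strand, was not uniform. miR-93-5p stood at 38281 RPM in PGCs and 6587 in spermatogonia, 5.81-fold lower, and miR-106b-5p was 7.18-fold lower. miR-25-3p from the same host gene stood at 2673 and 5319 RPM, 1.99-fold higher [1.96 to 2.02], with a log2 ratio of 0.99 beside the 0.65 of all miRNAs. It shares the seed AUUGCAC with miR-92a-3p and miR-363-3p. These 3 sequences are shown because they share 1 seed and yet differ from 189-fold lower to 1.99-fold higher.
miR-25-3p: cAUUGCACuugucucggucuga
miR-92a-3p: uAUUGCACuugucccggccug
miR-363-3p: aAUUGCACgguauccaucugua

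The summed level of all 5 miRNAs with this seed, miR-32-5p and miR-92b-3p included, was 12552 RPM in PGCs and 9132 in spermatogonia, 1.37-fold lower [1.36 to 1.39]. miR-92b-3p, also of this seed, was 3.36-fold higher, at 32.6 and 110 RPM.

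The miR-183/96/182 cluster, known for its expression in sensory organs and early germ cells, was the most abundant of the listed clusters in PGCs. Its entries summed to 383342 RPM in PGCs and 41318 in spermatogonia, 9.28-fold lower [9.25 to 9.31]. miR-182-5p was the most abundant miRNA of PGCs at 28.0% of miRNA reads, against 3.52% in spermatogonia, 7.95-fold lower. miR-183-5p stood at 97110 and 4822 RPM, 20.1-fold lower [20.0 to 20.3], and miR-96-5p at 6383 and 1263 RPM, 5.05-fold lower. The hairpins lie close together on the minus strand of chromosome 6, Mir183 at chr6:30169668-30169737 and Mir182 at chr6:30165918-30165992, with no other gene annotated on that strand. In the oocyte miR-182-5p stood at 158891 RPM and in spermatozoa at 5113. With totals that leave out the 5 most abundant miRNAs of either library, every miRNA ratio was lower by 0.32 on the log2 scale.

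The let-7 family, which limits proliferation and pluripotency genes in differentiating cells, was higher in spermatogonia in nearly every compared member. Of its 23 entries 17 were compared, and 16 were at least 4-fold higher and none lower, beside 25.7% and 12.6% of all miRNAs, with a median of 3.94 beside 0.65 for all miRNAs. The family summed to 6524 RPM in PGCs and 88845 in spermatogonia, 13.6-fold higher [13.5 to 13.7], and its log2 ratio of 3.77 was 3.05 at the lowest of the scalings tried. The family stood at 112146 RPM in spermatozoa and 208628 in the oocyte. let-7f-5p, the most abundant member in both, stood at 2519 and 28403 RPM, 11.3-fold higher. Members with the same seed differed in size of difference. let-7a-5p stood at 1536 and 15420 RPM, and let-7g-5p at 1284 and 9917 RPM, 7.72-fold higher. let-7c-5p, at 706 and 24060 RPM, was 34.1-fold higher. let-7d-5p stood at 55.8 and 2963 RPM, 53.1-fold higher, and let-7b-5p at 39.7 and 2656 RPM, 66.9-fold higher. Counting intervals of the fold, narrow at this depth, were 9.89 to 10.2 for let-7a-5p, 33.4 to 34.8 for let-7c-5p and 61.1 to 73.3 for let-7b-5p. They do not cover how reads were shared among members of near-identical sequence. The passenger entries let-7b-3p (3 and 504 reads) and let-7f-1-3p (3 and 331 reads) were also among the 10 miRNAs with the highest ratios. let-7e-3p, with 84 and 256 reads, was the compared member within 4-fold, with a log2 ratio of 1.77. let-7g-3p had 30 reads in PGCs and 0 in spermatogonia, too few to be compared.

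Neighbours of a let-7c precursor in the genome were also higher, by unlike amounts. An entry let-7c-2-3p was compared too, so the reads of let-7c-5p cannot be tied to a single locus. A let-7c precursor and Mir99a lie together in introns of the noncoding gene Mir99ahg, at chr16:77599657-77599750 and chr16:77598936-77599000 on the plus strand. miR-99a-5p stood at 114 RPM in PGCs and 1729 in spermatogonia, 15.2-fold higher [14.3 to 16.0]. miR-99a-3p, from the same hairpin, had 52 and 98 reads and lay within 4-fold. miR-125b-2-3p, whose precursor is also known to lie in that host gene, had 37 and 765 reads, 23.3-fold higher. On chromosome 9 the paralogous miR-100-5p was 6.83-fold and miR-125b-1-3p 24.3-fold higher. Over the miR-99/100 and miR-125 families 5 of 10 entries were at least 4-fold higher and none lower, beside 25.7% and 12.6% of all miRNAs, with a median of 2.21. The most abundant of them, miR-99b-5p, with a log2 ratio of 0.60, lay near the median of all miRNAs.

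**Figure D2:**
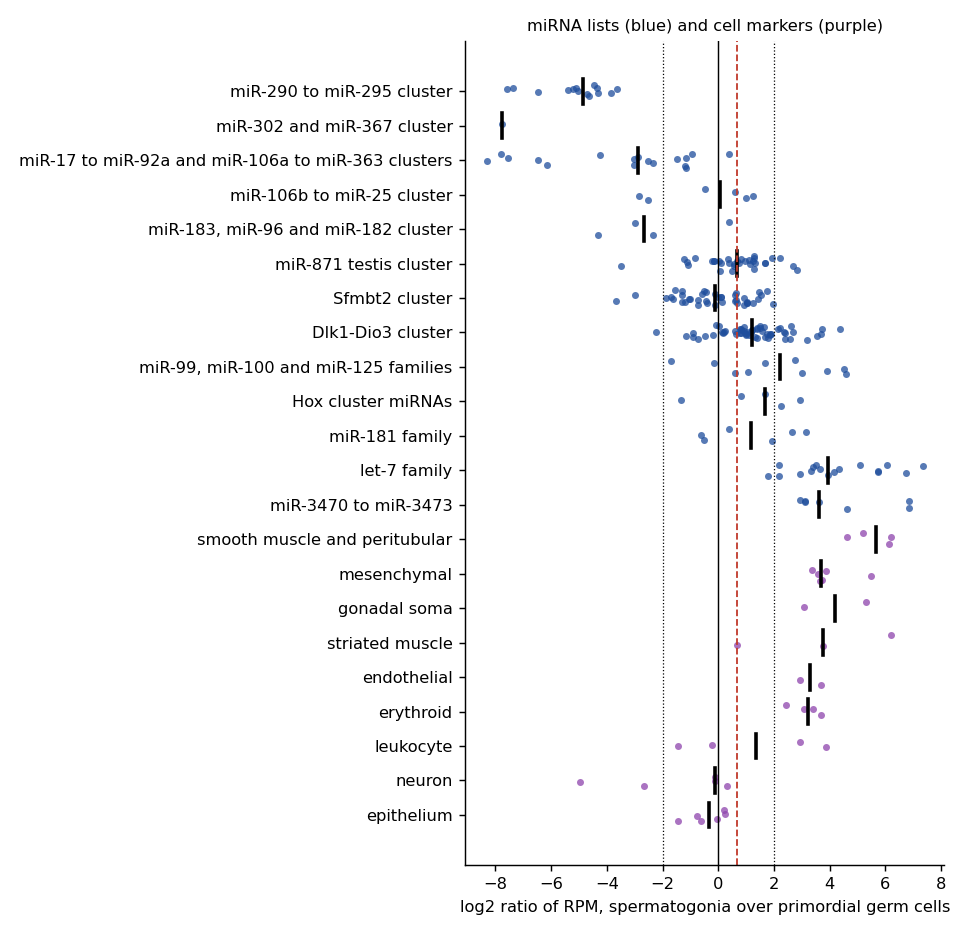
Log2 ratios (x axis) of the compared members of miRNA families and clusters (blue points) and of miRNAs listed as markers of other cell types (purple points). Black bars are list medians, the dashed line is the median of all 530 miRNAs at 0.65 and dotted lines mark 4-fold differences. The muscle, mesenchymal, gonadal soma, endothelial and erythroid markers lie to the right, and the miR-290 to miR-295 cluster lies furthest to the left among lists of 4 or more compared members.

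miRNA markers of somatic cell types were read next, since both preparations came from whole gonads. miR-143 and miR-145a, abundant in smooth muscle and in peritubular myoid cells, were higher in 4 of 4 compared entries, beside 25.7% of all miRNAs, and summed to 9261 RPM in PGCs and 233111 in spermatogonia. miR-143-3p was the most abundant miRNA of spermatogonia, at 23.1% of miRNA reads against 0.923% in PGCs, and it stood at 230279 RPM in spermatozoa. The mesenchymal list (miR-199a, miR-199b and miR-214) was higher in 6 of 6 entries, from 270 to 3908 RPM, with miR-214-3p 45.0-fold higher [39.8 to 51.0]. Of these entries, miR-199a-3p and miR-199b-3p have the same mature sequence, so their reads cannot be told apart and they are not separate evidence. miR-202, listed here for the somatic cells of the gonad, summed to 5723 RPM in the oocyte, 2789 in the zygote and 103 in spermatozoa. Within the pair it was higher in both entries, from 1734 to 14981 RPM. Endothelial miR-126a (1051 and 9053 RPM, 2 of 2 entries higher) and the erythroid list (213 and 2031 RPM, 4 of 4 compared entries higher) went the same way. Of the striated muscle list 2 of 3 compared entries were higher, at 26.1 and 329 RPM in sum.

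The sums of other marker lists did not follow. The leukocyte list summed to 588 RPM in PGCs and 304 in spermatogonia, and miR-142-3p, at 532 and 195 RPM, held 90.4% of its PGC reads. Its entries did not all go that way. Of 4 compared, 2 were at least 4-fold higher, miR-150-5p and miR-223-3p, beside 25.7% of all miRNAs, and the median log2 ratio was 1.34. Epithelial miR-200 and miR-141 entries summed to 1479 and 1084 RPM. Of them 0 of 6 compared were 4-fold apart, beside 25.7% higher and 12.6% lower of all miRNAs. The neuronal list summed to 3923 and 347 RPM, with most of the PGC reads on miR-9-5p (3698 and 117 RPM). Of its 5 compared entries 2 were lower, beside 12.6% of all miRNAs. miR-122-5p of liver had 0 reads in both. The part that cells outside the germ line have in any miRNA ratio given here was not tested; the let-7, miR-99/100 and miR-125 miRNAs in particular are also abundant in somatic tissue, and the lower miR-290 to miR-295 levels stand beside a smooth muscle marker sum of 233111 RPM in spermatogonia.

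Several clusters known from germ cells differed little as groups. The testis cluster around miR-871 on the X chromosome summed to 102030 RPM in PGCs and 113456 in spermatogonia, a log2 ratio of 0.15 that ranged from -0.56 to 0.15 over the scalings and so changed sign. Of its 33 compared entries 3 were at least 4-fold higher (miR-743a-3p, miR-883b-3p and miR-883b-5p) and 1 lower (miR-465d-5p), fewer than the 25.7% and 12.6% of all miRNAs, and the median of 0.67 lay at that of all miRNAs. miR-743a-3p stood at 1284 and 8271 RPM, 6.44-fold higher, and miR-871-3p, the most abundant of the cluster in spermatogonia, at 19095 and 28246 RPM. The entries miR-465a-3p, miR-465b-3p and miR-465c-3p have 1 and the same mature sequence, so their reads cannot be told apart. In both libraries miR-465b-3p and miR-465c-3p held equal reads (16949.1 each in PGCs, 36325 each in spermatogonia), and miR-465a-3p held 8474.53 and 18163.
miR-465b-3p: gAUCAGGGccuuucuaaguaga

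The imprinted Dlk1-Dio3 cluster of chromosome 12 was higher as a sum, 7829 RPM in PGCs and 35074 in spermatogonia, 4.48-fold [4.45 to 4.51]. Of its 57 compared entries 13 were at least 4-fold higher and 1 lower, beside the 25.7% and 12.6% of all miRNAs, with a median of 1.20. miR-127-3p, which is antisense to the retrotransposon-derived gene Rtl1, made up 49.2% of the cluster's reads in spermatogonia, at 1473 and 17254 RPM. The lower entry was miR-369-3p, at 192 and 41.2 RPM. The Sfmbt2 intron cluster summed to 1951 and 1936 RPM, with 0 of 41 compared entries at least 4-fold higher and 2 lower, miR-466a-5p and miR-669h-5p, again fewer than the shares of all miRNAs. Many of its entries are near-copies of one another, and how reads were split among them is not stated.

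miRNAs of the Hox clusters differed between close paralogs. miR-10a-5p and miR-10b-5p differ by U12A and share a seed. miR-10b-5p, from an intron of the Hoxd genes at chr2:74726070-74726137, plus strand, stood at 2224 RPM in PGCs and 10678 in spermatogonia, 4.80-fold higher [4.74 to 4.87]. miR-10a-5p stood at 1188 and 2099 RPM, 1.77-fold higher [1.73 to 1.80], a log2 ratio of 0.82 that is little above the 0.65 of all miRNAs. Members of the miR-181 family also differed in ratio: miR-181a-5p stood at 433 and 3807 RPM and miR-181b-5p at 225 and 1397 RPM, whereas miR-181d-5p stood at 3044 and 2106 RPM. miR-29a-3p was 6.45-fold higher, at 137 and 880 RPM, and miR-29b-3p stood at 150 and 93.9 RPM.
miR-10a-5p: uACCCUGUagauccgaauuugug
miR-10b-5p: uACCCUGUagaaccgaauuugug

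Among miRNAs tied to the state of spermatogonia in earlier work, miR-146a-5p, miR-221-3p and miR-222-3p were at least 4-fold higher, 3 of 7 compared beside 25.7% of all miRNAs, and the other 4 lay within 4-fold. miR-146a-5p stood at 14.4 and 138 RPM, 9.64-fold higher. miR-21a-5p, the most abundant of this list, stood at 12840 and 9852 RPM. Levels of the miR-34 and miR-449 miRNAs, which are abundant from meiosis onward, were low in both: miR-34c-5p stood at 3181 and 874 RPM against 221799 in spermatozoa. miR-449a-5p had 15 and 378 reads, 28.4-fold higher [17.0 to 51.2]. The sums of the miR-30 family, the miR-23/27/24 clusters, the miR-15/16 family and the miR-26 family differed by at most 1.57-fold and changed sign with the scaling.

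The widest differences upward among the 15 most abundant miRNAs of spermatogonia were in miR-3470a and miR-3470b. They had 3053.5 and 3512.5 reads in PGCs and 311039 and 359095 in spermatogonia, each 115-fold higher [111 to 119]. Their PGC reads are not whole, so both entries lie outside the 428 miRNAs with whole PGC reads. What part the sharing of reads among matching sequences has in these ratios was not tested. The 7 compared entries from miR-3470 to miR-3473 were all at least 4-fold higher, beside 25.7% of all miRNAs, and the list summed to 662 and 63893 RPM. In spermatozoa the list summed to 1300 RPM and in the oocyte to 151111, nearly all of it miR-3471. The other entries among the 10 with the highest ratios were miR-511-3p (0 and 186 reads), miR-3105-5p (44 and 4825), miR-5107-5p (4.66667 and 396), miR-3099-3p (2 and 170), miR-133a-3p (2 and 164) and miR-145a-5p (351 and 22902). Most of these 6 had few reads in PGCs, and miR-145a-5p, a smooth muscle marker, was the most abundant of them at 2149 RPM in spermatogonia.
miR-3470b: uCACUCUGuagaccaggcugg

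The choice of precursor arm was kept for nearly all miRNAs. Of 116 precursor names with at least 1000 reads in each library, the share of 5p reads differed by under 5 percentage points in 79 and by over 10 points in 21. The dominant arm differed for 3 of them, miR-335, miR-463 and miR-465b. miR-335, from an intron of the imprinted gene Mest at chr6:30741299-30741396, plus strand, had 31.6% 5p reads in PGCs [31.0 to 32.1] and 60.0% in spermatogonia [58.6 to 61.5]. Both arms were lower in spermatogonia, the 5p arm from 657 to 245 RPM and the 3p arm from 1425 to 163 RPM. The 5p share was 63.5% in the oocyte and 76.9% in the zygote.
miR-335-5p: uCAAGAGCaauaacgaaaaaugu
miR-335-3p: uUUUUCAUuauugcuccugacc

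miR-463 went from 46.6% to 68.7% 5p reads, and miR-465b from 57.4% to 48.5%, where the 3p reads are shared with identical entries. Without a change of the leading arm, miR-30b moved furthest, from 52.4% to 85.1% 5p reads.

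The 4 classes took unlike shares of reads in both cell types. miRNA entries took 45.2% of the reads of the 4 tables in PGCs and 40.5% in spermatogonia, and snoRNA entries 28.3% and 19.4%. piRNA entries took 21.9% and 27.1%, and endo-siRNA entries 4.58% and 13.0%, the largest relative difference. Without the 5 most abundant entries of each class, the order of piRNA shares was the other way round, at 41.5% in PGCs and 37.4% in spermatogonia, while endo-siRNAs stayed higher in spermatogonia, at 9.58% and 21.7%.

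The ratios of compared entries centred differently by class. Median log2 ratios were 0.65 for miRNAs, 0.33 for snoRNAs, 0.85 for piRNAs and 2.23 for endo-siRNAs.

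**Figure D3:**
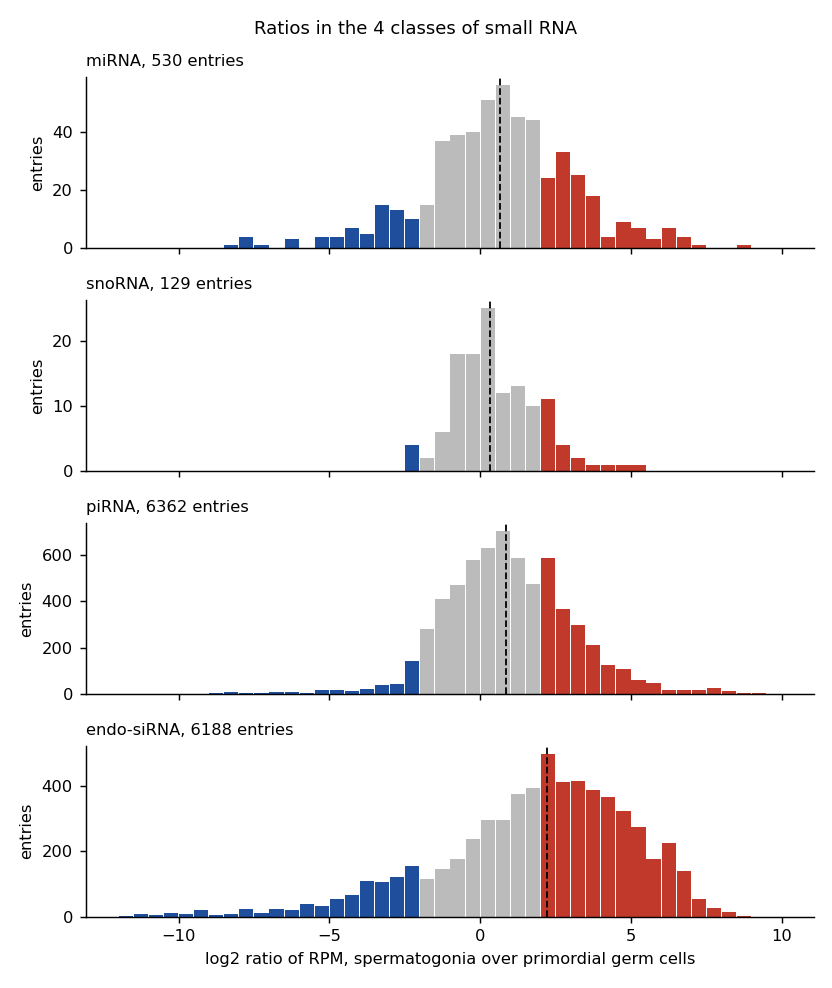
Number of compared entries (y axis) by log2 ratio of RPM in spermatogonia over PGCs (x axis, steps of 0.5) in each class; red bars are entries at least 4-fold higher, blue bars at least 4-fold lower, and the dashed line is the class median. The miRNA and snoRNA ratios centre near 0, at medians of 0.65 and 0.33, and those of endo-siRNAs spread most widely around 2.23.

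Among snoRNAs, 21 of 129 compared entries (16.3%) passed the 4-fold line upward in spermatogonia and 4 (3.10%) downward. SNORD60, a box C/D snoRNA, held 911938 RPM in PGCs and 926019 in spermatogonia, so that it alone was 91.2% and 92.6% of snoRNA reads. The 21 to 4 split did not hold under other scalings: it was 9 to 6 with reads scaled to all 4 classes or with TMM factors, 14 to 6 with DESeq2 size factors, 15 to 5 without the 5 most abundant entries, and 6 to 14 with the deposited factor. By structure, 11 of 87 compared C/D snoRNAs were higher and 2 lower, and 5 of 28 compared H/ACA snoRNAs were higher and 2 lower.

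The highest ratios were those of SNORD67 and SNORA73. SNORD67, a guide for U6 spliceosomal RNA, had 22 reads in PGCs and 531 in spermatogonia, 35.5-fold higher [23.2 to 57.2]. SNORA73, also called U17 or E1, which takes part in the cleavage of precursor ribosomal RNA, had 16.67 and 281.5 reads, 24.9-fold higher [15.0 to 42.5]. SNORA42, with 11 and 108 reads, and SNORD94, with 139 and 1053 reads, were also among the higher ones. Of the rRNA processing list, 4 entries were compared and 2 were higher, SNORA73 and SNORD118 (U8), the latter at 7.05 and 28.9 RPM, just past the 4-fold line, beside 16.3% of all snoRNAs. The log2 ratio of the list's sum was 1.56, and 0.46 with the deposited factor.

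Small Cajal body RNAs lay above the snoRNA median of 0.33, with a median of 2.05 over 4 compared entries, 2 of which were higher, beside 16.3% of all snoRNAs. The log2 ratio of their sum was 1.14, and 0.04 with the deposited factor. scaRNA18 had 33 and 514 reads, 22.9-fold higher [16.1 to 33.7], and scaRNA8 (U92) 23 and 91 reads. Most others had few reads in PGCs, and 10 of the 14 were not compared. scaRNA6 (U88), the most abundant of the 14 in both, stood at 644 and 1289 RPM.

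Many snoRNAs are spliced from introns of a host gene, and those of 1 host can be set side by side. The 5 compared snoRNAs from introns of Gas5, a growth-arrest host gene, summed to 3016 RPM in PGCs and 1006 in spermatogonia, 3.00-fold lower [2.91 to 3.09]. Within that host SNORD78 stood at 2227 and 521 RPM and SNORD81 at 365 and 118 RPM, whereas SNORD75 stood at 112 and 110 RPM and SNORD47 at 29.9 and 39.1 RPM. Of the 8 from Snhg1 introns, SNORD28 was 4.56-fold lower (1640 and 360 RPM) and SNORD26 stood at 248 and 527 RPM. The 4 snoRNAs of Rpl13a had 0 entries 4-fold apart, beside 16.3% higher and 3.10% lower of all snoRNAs. The members of Gas5 and of Snhg1 thus differed in ratio among themselves. SNORA1 and SNORA2, the other lower entries, had 141 and 20 reads and 157 and 24 reads.

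**Figure D4:**
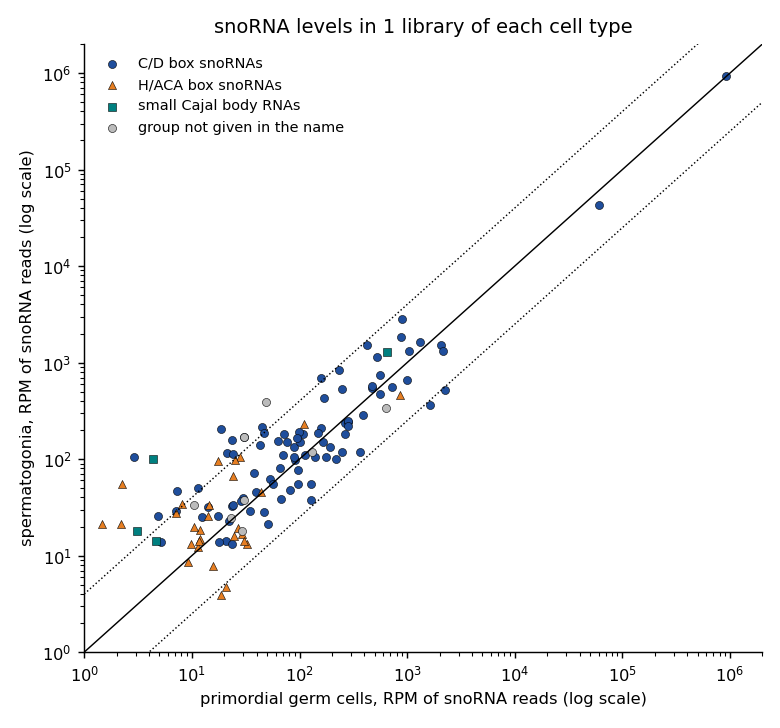
Levels of the 129 compared snoRNA entries in PGCs (x axis) and spermatogonia (y axis), in RPM of snoRNA reads on log scales, by structural group. The solid line marks equal levels and the dotted lines 4-fold differences; SNORD60 lies alone at the upper right, at 911938 and 926019 RPM, and scaRNA18, SNORD67 and SNORA73 lie above the upper dotted line.

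Among entries listed as piRNAs, 1896 of 6362 (29.8%) passed the 4-fold line upward in spermatogonia and 338 (5.31%) downward. The split was 1327 to 607 with TMM factors and 1386 to 590 with DESeq2 size factors. The tables give names without sequences, lengths or genome positions, so whether reads of 18 to 32 nucleotides on these entries are piRNAs by length or first base was not tested. The most abundant entries were shared. PIR64428 led both libraries, at 106562 RPM in PGCs and 120890 in spermatogonia, followed by PIR64875 at 25453 and 36394 RPM and by PIR75142 at 18633 and 14644 RPM. PIR64874, next in number to PIR64875, held 147997 and 260062 reads against 148143 and 260249, and whether the pair counts the same reads was not tested. In spermatozoa PIR64428 stood at 363421 RPM.

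Below the leading entries, reads were spread more evenly in spermatogonia. The entries holding 50% of piRNA reads numbered 44 in PGCs and 81 in spermatogonia, and those holding 90% numbered 2232 and 4261. The higher entries held 25.3% of piRNA reads in spermatogonia and 2.88% in PGCs. Outside the pair they held 13.6% of oocyte, 21.0% of zygote and 5.78% of spermatozoal piRNA reads. A block of 6 consecutive entries, mmur000923897 to mmur000923902, stood at 1301 RPM in PGCs and 6914 in spermatogonia for its most abundant entry. Higher entries were more frequent among names starting PIR (45.6% of 1499 compared) than among names starting mmur (25.0% of 4816). Lower entries were more frequent among PIR names too, at 10.4% against 3.76%. Over all compared piRNA entries the shares were 29.8% higher and 5.31% lower. Names starting PIR held 50.8% of piRNA reads in PGCs and 51.9% in spermatogonia. Entries named for the mitochondrial chromosome held 0.172% and 0.214% of piRNA reads.

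Most of the extremes had reads in 1 library only. PIR36940 had 1181 reads in PGCs and 0 in spermatogonia, at least 484-fold lower against 3 counts, and PIR6623 had 375 and 0 reads. PIR197992 had 0 and 372 reads, at least 101-fold higher, and PIR12059 0 and 361 reads. PIR64616, also among the leading entries of PGCs, stood at 10820 RPM there and 1580 in spermatogonia.

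Endo-siRNA entries had the largest share past the 4-fold line of the 4 classes. Of 6188 compared, 3319 (53.6%) passed the 4-fold line upward in spermatogonia and 834 (13.5%) downward. The split depends on the minimum of 100 reads, which equals 29.2 RPM in the larger spermatogonial table and 82.2 RPM in that of PGCs. With the minimum set on the summed RPM instead, 2488 were higher and 1284 lower of 5707, and with reads scaled to all 4 classes 4385 were higher and 452 lower. Reads were spread over more entries in spermatogonia: 949 entries held 50% of endo-siRNA reads, against 205 in PGCs, and the 5 most abundant held 4.45% against 10.4%. The numbers of entries holding 90% were closer, 15289 in spermatogonia and 11499 in PGCs.

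mmur000042018, the leading endo-siRNA entry of PGCs, had 52419.1 reads there and 365.5 in spermatogonia, or 43084 and 107 RPM. mmur001009920, by contrast, stood at 274 and 8686 RPM. Blocks of consecutive entry numbers had like ratios: mmur000681032 to mmur000681036 stood at 299 to 489 RPM in PGCs and 4708 to 7431 RPM in spermatogonia, and mmur000055371 to mmur000055377 at 4847 to 7266 and 337 to 686 RPM. mmur001272954 was the leading entry of spermatogonia and was nearly level, at 16116 RPM in PGCs and 13736 in spermatogonia, and it held 160993 RPM in the oocyte. The largest differences were of entries with no read in 1 library, such as mmur000976070 with 610.5 and 0 reads and mmur001477518 with 0 and 641.93 reads.

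The spermatozoa library, which had no part in choosing these entries, held its endo-siRNA reads mainly on those that were lower in spermatogonia. The 834 lower entries held 51.6% of endo-siRNA reads in PGCs and 4.42% in spermatogonia, by which they were chosen. They held 57.0% of endo-siRNA reads in spermatozoa [56.9 to 57.1], against 0.849% for oocyte and 0.953% for zygote. The 3319 higher entries held 1.80% in spermatozoa, 15.3% for oocyte and 15.0% for zygote. Of the 834 lower entries 58.9% reached 10 RPM in spermatozoa, against 9.40% of the 3319 higher entries and 19.7% of the 2035 between. These sets were not alike in level, since 100 reads equal 82.2 RPM in PGCs and 29.2 RPM in spermatogonia. The median was 143 RPM in PGCs for lower entries and 65.2 RPM in spermatogonia for higher ones. What part this has in the shares at 10 RPM was not tested. mmur000042018 itself stood at 92451 RPM in spermatozoa and 19.6 in the oocyte. The share in spermatozoa was 61.9% with runs of consecutive like entries counted once, 48.3% without the 5 most abundant entries of any library, and 36.8% on the 117 lower entries with at least 1000 reads.

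**Figure D5:**
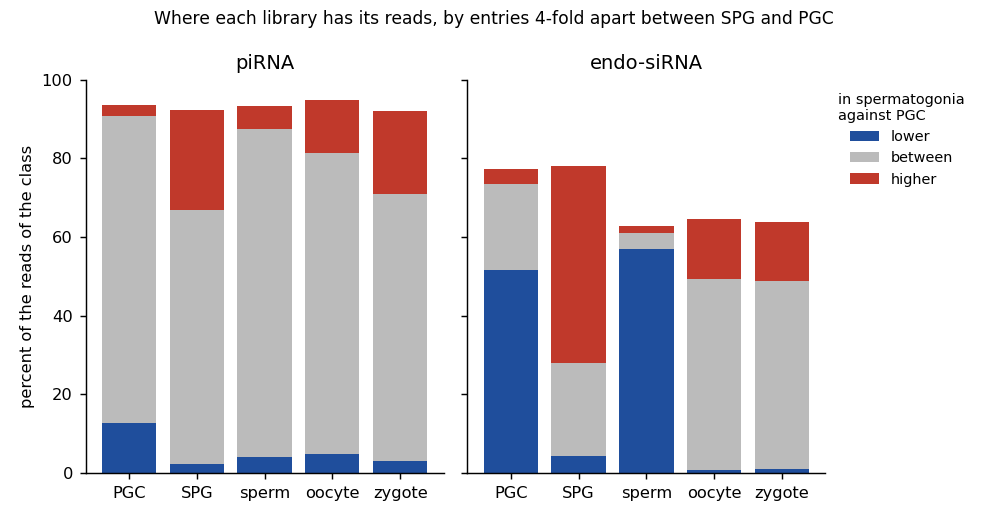
Percent of the piRNA reads (left) and endo-siRNA reads (right) of each library (y axis) on entries at least 4-fold lower (blue), between (grey) and at least 4-fold higher (red) in spermatogonia (SPG) than in primordial germ cells (PGC); the rest of each bar to 100% lies on entries not compared. The PGC and SPG bars show the choice of entries, and the blue part of the endo-siRNA bar reaches 57.0% in spermatozoa and 0.849% in the oocyte.

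The same was not seen for piRNA entries. The 338 piRNA entries lower in spermatogonia held 12.8% of piRNA reads in PGCs and 2.15% in spermatogonia, and 3.99% of those in spermatozoa, 4.76% for oocyte and 3.14% for zygote. Among them 25.1% reached 10 RPM in spermatozoa, against 20.6% of the 4128 entries between. Spermatozoa, spermatogonia and PGCs were all from CD-1 mice and the egg libraries were not, so strain and cell type cannot be told apart in the comparison with the egg libraries.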

How the data were processed

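Small RNA of 18 to 32 nucleotides from 5 mouse libraries, 1 for each cell type, was tabulated by the authors in 4 tables a library. Read values are estimated counts per entry as the authors deposited them, many of them not whole. A second deposited column is a normalised signal, the reads times 1 factor for each library, used here only as an alternative scaling. Per the submitters' processing notes, Bowtie 0.12.7, DESeq and mm10 were used, with no role stated; which annotation sets and mismatch limit were used, and how a multiply matching read was shared out, is not given in the sources used here.

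Reads were scaled to 1000000 per class and library, and log2 ratios used a pseudocount of 0.5 reads and a minimum of 100 reads over the pair. Ratios have exact conditional Poisson intervals and shares exact Clopper-Pearson intervals at 95%. A count of 0 was replaced by 3 counts for a bound. No test was made and no replicate exists. Alternatives were the factors of edgeR 4.0.16 and DESeq2 1.42.0 (R 4.3.3), the deposited factor, other minimums and pseudocounts, and merged entries; the code (numpy 2.4.6, pandas 2.3.3, scipy 1.17.1) was tested on simulated data. Named miRNAs are the 10 highest and 10 lowest ratios, the 15 most abundant of each library and list members; for other classes 5 replace 10 and 15, and arms are named where the leading arm differs. Names outside that rule, such as entries beside a named one, were chosen after their values were seen. The members and lists were chosen with earlier results of these data known. Sequences and hairpin positions come from RefSeq and host genes from GENCODE, both on GRCm38.p6.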

Additional observations from a re-analysis of the deposited data

Results flagged for a closer look

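Reads outside the compared entries stood out in the snoRNA tables. In PGCs 41671.2 reads, 0.551% of the table, and in spermatogonia 42441.3 reads, 0.824%, lay on 5 entries that name no single snoRNA, above the 3 counts that a count of 0 allows. They are not among the 186 named snoRNA entries, and what they are was not tested.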

How the results depend on the processing

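Of the counts and shares recomputed, 62 values stayed close to the reported one and 43 moved. Some moves turned a comparison round: snoRNAs were 6 higher and 14 lower with the deposited factor, piRNAs and endo-siRNAs had slightly more lower than higher entries at a minimum of 1 read, and the piRNA share was larger in PGCs without the 5 most abundant entries. A minimum of 20 reads gave 105 lower miRNAs, 39 higher snoRNAs, 5302 higher and 1770 lower piRNAs, with 9791 higher and 3365 lower endo-siRNAs; more entries enter under it. A minimum of 1 read gave 383 and 200 miRNAs, 50 higher snoRNAs, 21294 and 21954 piRNAs, and 21002 and 21206 endo-siRNAs. For the scalings the cause was not tested. Higher snoRNAs numbered 9 with all 4 classes, 9 with TMM factors and 6 with the deposited factor, which gave 14 lower ones, and a pseudocount of 5 gave 2 lower. Lower piRNAs numbered 607 with TMM factors and 590 with DESeq2 size factors. Lower endo-siRNAs numbered 452 with all classes and 1284 with the minimum on summed RPM, an alternative chosen after seeing the data.

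Without the 5 most abundant entries, class shares in PGCs and spermatogonia were 47.8% and 40.2% for miRNAs, 1.16% and 0.739% for snoRNAs, 41.5% and 37.4% for piRNAs, with 9.58% and 21.7% for endo-siRNAs. With runs of like entries counted once they were 48.6% and 44.0%, 30.5% and 21.2%, 16.7% and 22.2%, and 4.21% and 12.5%. The leading arm differed for 5 precursors at 1000 reads over the pair and 23 at 100. The share of spermatozoal endo-siRNA reads on lower entries was 61.9% with runs once, 48.3% without the leading entries and 36.8% at 1000 reads, all chosen after seeing the data. Among single entries and lists, 457 values moved and 193 stayed. Of these, 47 values changed sign, for 9 entries and 6 list sums whose reported log2 ratios were at most 1.04 from 0; none of the recomputed entries past the 4-fold line changed sign. No paired analysis was possible because each group has 1 library, so none could be left out. Runs by table order were not made for piRNAs and endo-siRNAs, whose tables are sorted by reads; runs by entry number, chosen after seeing the data, replaced them. Depth limits low entries: 3 counts equal 0.250 and 0.281 RPM of miRNAs, and 2.47 and 0.875 RPM of endo-siRNAs.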
